A study of Mus musculus with 19 samples.

Results

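Recurrent MYC mouse liver tumors, labelled MYC_Recur, were compared with liver tumors labelled MYC_Twist1_HCC. The comparison covered 11941 of the 19486 gene symbols of the deposited table, chosen as those with a value of at least 1 in at least 3 of the 8 libraries compared. MYC_Recur holds 3 libraries and MYC_Twist1_HCC holds 5, out of 19 libraries in 5 groups, the others being labelled MYC_HCC, MYC_OFF and MYC_Twist1_OFF. All of them are labelled as hepatocellular carcinoma of the liver, were flash frozen and went through 1 RNA extraction kit and BGI library preparation. The labels give the oncogenes by these group names and no strain, promoter, allele, treatment, time or age, neither for the tumors that carried Twist1 nor for those called recurrent. Whether any samples shared an animal is not stated. A p-value here therefore only sets a difference against the spread among samples, pooled over all 5 groups. That spread may be technical. The 5 MYC_Twist1_HCC libraries are marked as re-analysed from an earlier deposit and the 3 MYC_Recur libraries are not. Group and deposit therefore cannot be told apart in any value below, and no within-deposit comparison of these groups exists.

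MYC is a transcription factor that binds DNA as a dimer with MAX and drives genes of ribosome production, nucleotide synthesis and cell division. TWIST1 is a transcription factor of the embryonic mesenchyme that, when expressed in epithelial cells, can start an epithelial to mesenchymal transition, in which cells lose junctions and gain motility. In mouse models whose MYC transgene can be switched off, liver tumors regress when it is off and can grow back, which is what recurrence means in such models.

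Values below are the deposited normalized signal per gene, in the order of MYC_Recur 1 to 3 and of MYC_Twist1_HCC 1 to 5. Myc stood at 159, 156 and 152 in MYC_Recur and 116, 120.0, 134, 153 and 102 in MYC_Twist1_HCC. The groups overlapped, and the difference on the log2(value + 1) scale was 0.33 (SE 0.20, adjusted p = 0.326). Myc (chromosome 15, 61985341 to 61990361, GRCm38) was at 129 to 180.5 in the MYC_HCC libraries and at 33.9 to 59.8 in those labelled MYC_OFF. Twist1 (chromosome 12, 33957671 to 33959831) was at 0.03, 0.03 and 0.02 in MYC_Recur and 0, 0.05, 0, 0.12 and 0.04 in MYC_Twist1_HCC, did not reach the filter and was not tested. The table thus shows no Twist1 level that sets the libraries labelled MYC_Twist1_HCC apart, and every direction below rests on the labels alone. Hepatocyte genes were present in all 8 libraries. Alb, the plasma protein albumin, stood at 1409, 1769 and 2280.3 in MYC_Recur and 1053, 1058, 1476, 1257 and 724 in MYC_Twist1_HCC, and the 25 tested hepatocyte secretory genes summed to 13816 to 18695 in MYC_Recur and 10962 to 15126 in MYC_Twist1_HCC.

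The sums of all deposited values ran from 519051 to 690310 per library, and the 10 highest genes held 7.75% to 12.7% of them. Sequencing depth is unknown, so no counting interval is given. Across all genes tested, correlations of log2(value + 1) between libraries were 0.915 to 0.935 within MYC_Recur, 0.920 to 0.960 within MYC_Twist1_HCC and 0.839 to 0.931 between the groups. These correlations are across genes, which are not independent replicates. MYC_Recur 3 stood apart in 1 gene in particular: Npm1, the nucleolar chaperone nucleophosmin, was at 364, 830.2 and 27169 in MYC_Recur. It was the highest gene of that library, against 301, 135, 519.9, 436 and 265 in MYC_Twist1_HCC, and its difference of 2.75 (SE 1.05, adjusted p = 0.117) was not called. Of the tested genes, 235 are listed at 0 in at least 1 of the 8 libraries. Since these include genes that every cell uses, such as Rpl19 in MYC_Twist1_HCC 3, a 0 is given below only as listed. The filter drew its line between genes such as Armcx4 and Evi2b, whose third-highest value was 1.0, and Adamts5, whose third-highest value was 0.99.

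Of the 11941 genes tested, 476 were higher and 420 were lower in MYC_Recur at a limma adjusted p under 0.05, which is what "called" means below. Together they are 7.5% of the genes tested, 3.99% higher and 3.52% lower. At an unadjusted p under 0.05 there were 2848. The library values of the 2 groups did not overlap for 2447 genes (20.5%), and 804 genes (6.73%) were called with no overlap. More falls than rises were large: 123 called genes were over 4-fold lower and 73 over 4-fold higher on the log2(value + 1) scale, and the median called difference was -1.53 for falls and 1.18 for rises. The smallest called difference was 0.56. Some of the called genes passed the filter through 1 group alone. They were 45 of the 67 genes that passed through MYC_Recur alone and 61 of the 228 that passed through MYC_Twist1_HCC alone. In the first set the groups could not overlap, so those genes had to differ. In the second set the filter itself favored a fall.

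The median over all genes tested was 0.13, with quartiles of -0.20 and 0.44, and 60.8% of genes lay above 0. Changes below are read against that shift. After median-of-ratios scaling, upper-quartile scaling or quantile normalization of the deposited values, the median fell to 0.02 to 0.03. The share of called genes that were higher went from 53.1% to 37.4%, 38.7% and 38.6%, with 288, 307 and 302 genes higher and 482, 487 and 481 lower. A single library carried much of the count. Without MYC_Recur 3, 410 genes were called, and 362 of the 896 were among them. Without MYC_Twist1_HCC 5, 590 genes were called. No called gene changed sign in any of the alternative analyses. The median standard error over all genes was 0.29.

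**Figure D1:**
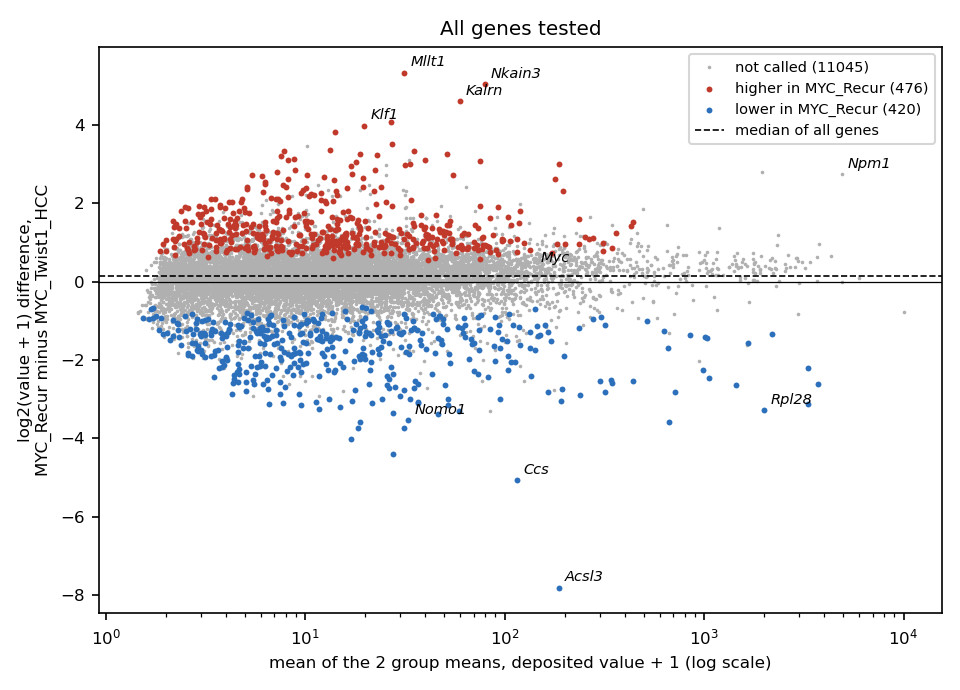
Each point is 1 of the 11941 genes tested, with the mean of the 2 group means (deposited value + 1, log scale) on the horizontal axis and the log2(value + 1) difference, MYC_Recur minus MYC_Twist1_HCC, on the vertical axis. Red points are the 476 genes called higher, blue points the 420 called lower, and the dashed line is the median of all genes at 0.13.

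**Figure D2:**
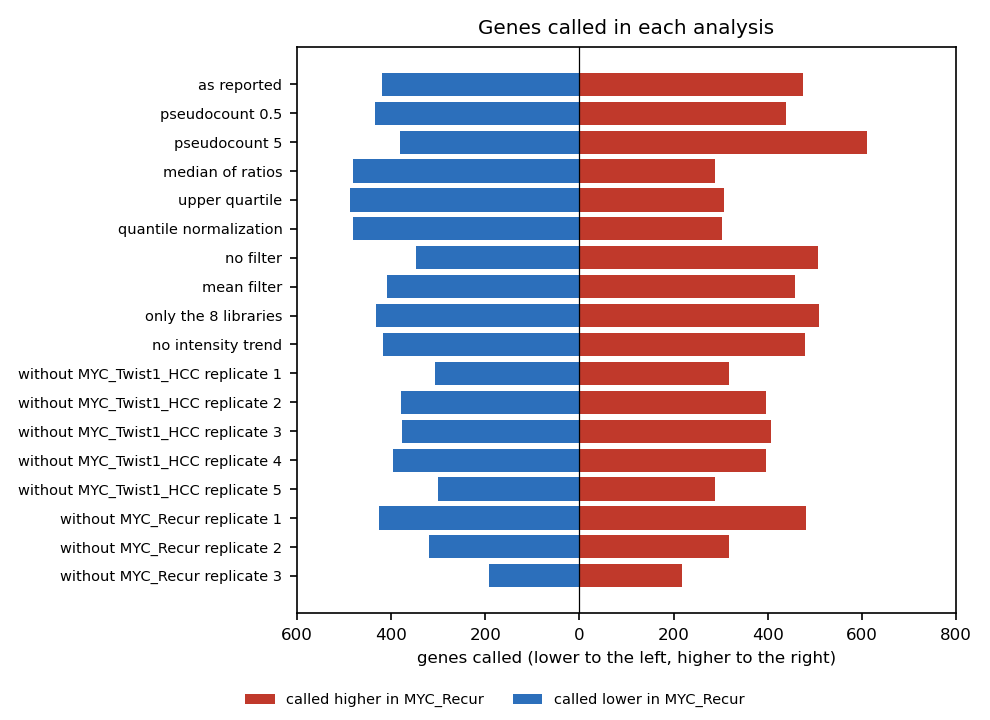
Bars give the number of genes called higher (red, to the right) and lower (blue, to the left) in MYC_Recur in the analysis as reported and in each alternative except the replicate block. The bars are shortest without MYC_Recur 3, at 218 higher and 192 lower, and the 3 other scalings shorten the red bars to 288, 307 and 302.

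The MYC network holds MYC, its partner MAX, the MXD proteins and MNT that compete for MAX, and the related MLX dimers. Of its 12 tested genes, 2 were called higher and 0 lower, with a median difference of 0.45 beside 0.13 for all genes. Of all genes tested, 3.99% were called higher. Max stood at 49.5, 33.5 and 86.9 in MYC_Recur and 22.2, 16.9, 26.9, 25.3 and 19.7 in MYC_Twist1_HCC, a difference of 1.22 (SE 0.30, adjusted p = 0.0196). The groups did not overlap, and Max was at 39.5 to 74.5 in MYC_HCC and at 4.43 to 6.44 in MYC_OFF. Mlxipl, which encodes the carbohydrate-responsive factor ChREBP, stood at 28.02, 28.5 and 38.4 in MYC_Recur and 18.6, 18.8, 18.4, 16.6 and 10.2 in MYC_Twist1_HCC, a difference of 0.91 (SE 0.26, adjusted p = 0.0359). Neither call was firm. Max lost its call without MYC_Recur 3, after median-of-ratios scaling or after quantile normalization (adjusted p from 0.0584 to 0.158). Mlxipl lost its call without MYC_Twist1_HCC 1, 4 or 5, without any one MYC_Recur library, after median-of-ratios scaling, after upper-quartile scaling or after quantile normalization (adjusted p from 0.0504 to 0.185).

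The start regions of Max and Mlxipl are shown because these were the called genes of the network, and those of Rpl28 and Rps9 because these ribosomal protein genes fell most firmly among their family. Each window runs from 250 bases before to 50 bases after the annotated start, 5′ to 3′ on the gene's strand, from RefSeq on GRCm38.p6. In the first pair the capitals mark CACGTG, the E-box that MYC and MAX dimers bind. In the second pair they mark TGTCTCTCTTT, the longest run of letters the 2 windows share. The windows lie at chr12:76962199-76962498 (minus strand), chr5:135106641-135106940, chr7:4792715-4793014 and chr7:3703791-3704090 (plus strand).
Max: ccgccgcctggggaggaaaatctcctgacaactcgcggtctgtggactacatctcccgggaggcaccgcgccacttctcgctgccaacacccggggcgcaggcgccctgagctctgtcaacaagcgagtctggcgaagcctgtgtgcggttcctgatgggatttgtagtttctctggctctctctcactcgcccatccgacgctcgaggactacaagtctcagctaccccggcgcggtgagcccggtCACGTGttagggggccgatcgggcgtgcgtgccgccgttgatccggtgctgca
Mlxipl: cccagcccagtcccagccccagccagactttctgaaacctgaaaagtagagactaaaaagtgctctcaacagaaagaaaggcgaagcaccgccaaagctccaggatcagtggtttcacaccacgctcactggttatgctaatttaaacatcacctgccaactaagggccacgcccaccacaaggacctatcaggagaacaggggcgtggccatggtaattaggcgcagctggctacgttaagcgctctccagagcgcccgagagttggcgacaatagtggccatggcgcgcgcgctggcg
Rpl28: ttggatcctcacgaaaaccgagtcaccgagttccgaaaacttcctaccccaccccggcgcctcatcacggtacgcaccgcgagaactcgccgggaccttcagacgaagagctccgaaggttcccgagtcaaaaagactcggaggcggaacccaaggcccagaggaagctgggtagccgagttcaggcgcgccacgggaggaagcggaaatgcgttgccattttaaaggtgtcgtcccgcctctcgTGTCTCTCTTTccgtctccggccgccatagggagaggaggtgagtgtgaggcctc
Rps9: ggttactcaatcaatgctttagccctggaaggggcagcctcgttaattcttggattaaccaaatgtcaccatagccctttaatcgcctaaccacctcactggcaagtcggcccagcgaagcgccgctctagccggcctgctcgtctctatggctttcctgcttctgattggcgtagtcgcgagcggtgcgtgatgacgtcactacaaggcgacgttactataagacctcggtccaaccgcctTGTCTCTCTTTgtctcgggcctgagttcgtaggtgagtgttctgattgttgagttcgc

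The Max window holds CACGTG 1 time, starting 3 bases before the annotated start, and the Mlxipl window does not hold it. Among genes with a window in the table, CACGTG was found in 12.2% of those called higher (46 of 378), 14.3% of those called lower (47 of 329), 10.6% of all tested (987 of 9319) and 7.24% of all 27025. The motif reads the same on both strands. CATATG and CAGCTG, 2 E-box forms that twist-family factors bind, were in 0.79% and 13.2% of genes called higher, 1.52% and 14.9% of those called lower, and 1.49% and 14.3% of those tested. TGTCTCTCTTT, searched on both strands, spans the annotated start in both ribosomal windows, was in 2 of the 58 ribosomal protein genes with a window and in 0.06% of all. It was chosen because both windows hold it, so this share is a description only.

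The 5 largest rises were firm in all libraries and spanned transcription, membrane transport and signaling genes. Mllt1, which encodes the ENL subunit of a transcription elongation complex, stood at 70.2, 62.8 and 45.8 in MYC_Recur and 6.35, 0, 0, 0 and 0 in MYC_Twist1_HCC. All 3 recurrent libraries were above all 5 others, and the difference was 5.32 (SE 0.76, adjusted p = 0.000398). It was at 61.7 to 361 in MYC_OFF and at 2.21 to 13.8 in MYC_HCC. Nkain3, a membrane protein that interacts with the sodium pump, stood at 162, 264 and 35.2 in MYC_Recur and 6.65, 5.8, 1.02, 2.63 and 0.43 in MYC_Twist1_HCC, a difference of 5.04 (SE 0.995, adjusted p = 0.00469). Kalrn, an exchange factor for small GTPases best known from neurons, stood at 128, 71.6 and 138 in MYC_Recur and 1.14, 10.9, 2.27, 6.73 and 1.82 in MYC_Twist1_HCC, a difference of 4.61 (SE 0.50, adjusted p = 4.43e-05). It was at 0.11 to 3.48 in MYC_HCC and at 0 to 0.06 in MYC_OFF, so the recurrent libraries held the highest levels of the series. Ero1lb, an oxidase of the endoplasmic reticulum, stood at 50.99, 37.8 and 61.5 in MYC_Recur and 3.14, 2.4, 1.82, 1.49 and 1.48 in MYC_Twist1_HCC, a difference of 4.06 (SE 0.43, adjusted p = 3.2e-05). Klf1, the master transcription factor of red blood cell precursors, stood at 44.7, 20.6 and 43.02 in MYC_Recur and 1.97, 2.95, 0.56, 1.05 and 0.5 in MYC_Twist1_HCC, a difference of 3.97 (SE 0.48, adjusted p = 0.000128). All 5 kept their calls whichever of the 8 libraries was left out.

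Among the next rises, Acvrl1, a receptor of the TGF-beta family best known from endothelium, stood at 166, 16.96 and 14.7 in MYC_Recur and 3.88, 4.09, 2.46, 1.34 and 2.05 in MYC_Twist1_HCC, with MYC_Recur 1 far above the rest, and differed by 3.32 (SE 0.57, adjusted p = 0.00152). Kif27, a kinesin-like motor protein, stood at 6.62, 9.18 and 24.2 in MYC_Recur and 0.2, 0.39, 0.04, 0.65 and 0.09 in MYC_Twist1_HCC, a difference of 3.32 (SE 0.58, adjusted p = 0.00195). Ubac2, an endoplasmic reticulum protein whose gene overlaps Gpr18 and Gpr183, stood at 56.2, 117 and 90.2 in MYC_Recur and 14.6, 0, 8.9, 28.9 and 11.8 in MYC_Twist1_HCC and differed by 3.24 (SE 0.70, adjusted p = 0.00889). Its call was lost in a fit of the 8 libraries alone (adjusted p = 0.0588). In 4 other genes a single recurrent library held much of the rise. Like Kif27, they were below 1 in all MYC_Twist1_HCC libraries and passed the filter through MYC_Recur alone, so their groups could not overlap. Clec3b, the plasminogen-binding protein tetranectin, stood at 5.41, 6.38 and 66.97 in MYC_Recur and 0.18, 0.09, 0, 0 and 0 in MYC_Twist1_HCC and differed by 3.81 (SE 0.89, adjusted p = 0.014). Defb30, a beta-defensin, stood at 3.59, 3.7 and 39.5 in MYC_Recur and 0, 0.15, 0.08, 0.24 and 0 in MYC_Twist1_HCC and differed by 3.13 (SE 0.72, adjusted p = 0.0123). Endou, an endoribonuclease, stood at 4.33, 4.84 and 33.4 in MYC_Recur and 0.25, 0.74, 0, 0 and 0.08 in MYC_Twist1_HCC and differed by 3.11 (SE 0.72, adjusted p = 0.0129). Theg, a gene of developing sperm, stood at 12.3, 23.4 and 3.12 in MYC_Recur and 0.27, 0.94, 0, 0 and 0 in MYC_Twist1_HCC and differed by 3.20 (SE 0.73, adjusted p = 0.0123). The calls were lost for Clec3b without MYC_Recur 3 (adjusted p = 0.121), for Defb30 without MYC_Recur 3 (adjusted p = 0.107), for Endou without MYC_Recur 3 (adjusted p = 0.112) and for Theg without MYC_Recur 2 (adjusted p = 0.0701). Cacna1c, a calcium channel subunit named outside the selection rule after its values were seen, stood at 10.4, 8.93 and 5.74 in MYC_Recur and 0.09, 0.26, 0.43, 0.88 and 0.45 in MYC_Twist1_HCC, a difference of 2.71 (SE 0.27, adjusted p = 2.46e-05). It too passed the filter through MYC_Recur alone and so had to differ.

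The largest fall was in Acsl3, which encodes an enzyme that activates long-chain fatty acids at lipid droplets. It was listed at 0, 0 and 0 in MYC_Recur and at 1212, 261, 134, 188 and 67.5 in MYC_Twist1_HCC (adjusted p = 0.00252). No fold change is given against a group listed at 0. Acsl3 was at 21.2 to 53.1 in MYC_HCC and at 538 to 1520.4 in MYC_Twist1_OFF, and it overlaps Utp14b. Sfxn5, a mitochondrial carrier named outside the rule, was likewise listed at 0, 0 and 0 in MYC_Recur against 4.26, 5.56, 8.58, 5.08 and 9.45 (adjusted p = 4.78e-06). Both passed the filter through MYC_Twist1_HCC alone. Ccs, the chaperone that delivers copper to superoxide dismutase, stood at 4.95, 37.99 and 0.1 in MYC_Recur and 255, 236, 167, 158 and 261 in MYC_Twist1_HCC, a difference of -5.06 (SE 0.74, adjusted p = 0.000428). Its recurrent libraries varied widely, yet all lay below the lowest of the other group. FBXO18, an F-box protein with DNA helicase activity, stood at 2.26, 2.36 and 0.13 in MYC_Recur and 39.5, 45.2, 32.4, 95.1 and 45.5 in MYC_Twist1_HCC, a difference of -4.40 (SE 0.64, adjusted p = 0.000419). Pias1, a ligase that attaches SUMO to proteins, stood at 0.97, 1.27 and 1.15 in MYC_Recur and 22.7, 21.02, 72.3, 10.2 and 42.7 in MYC_Twist1_HCC, a difference of -3.74 (SE 0.49, adjusted p = 0.000174). Pias1 was at 3.07 to 9.86 in MYC_HCC but at 251 to 567 in MYC_OFF and at 154 to 429 in MYC_Twist1_OFF. Fam207a stood at 2.12, 5.33 and 2.06 in MYC_Recur and 52.2, 31.04, 74.4, 29.5 and 99.8 in MYC_Twist1_HCC, a difference of -3.74 (SE 0.39, adjusted p = 2.9e-05). It too was high in both OFF groups, at 591 to 796 in MYC_OFF.

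Several further falls were in genes of mitochondria, the endoplasmic reticulum and protein turnover. Atpif1, the inhibitor of the mitochondrial ATP synthase, stood at 97.4, 239.9 and 36.1 in MYC_Recur and 1639, 643, 1373, 827 and 1597 in MYC_Twist1_HCC, a difference of -3.57 (SE 0.56, adjusted p = 0.000775). Cops8, a subunit of the COP9 signalosome, stood at 2.16, 3.41 and 0.6 in MYC_Recur and 51.1, 27.1, 33.99, 21.2 and 35.7 in MYC_Twist1_HCC and differed by -3.57 (SE 0.56, adjusted p = 0.000705). Nomo1, a membrane protein of the endoplasmic reticulum, stood at 3.62, 5.55 and 3.21 in MYC_Recur and 52.3, 44.1, 58.4, 45.8 and 97.9 in MYC_Twist1_HCC and differed by -3.53 (SE 0.32, adjusted p = 8.78e-06), with tight libraries in both groups. Ei24, an endoplasmic reticulum protein induced by p53, stood at 5.54, 9.43 and 3.51 in MYC_Recur and 66.9, 24.02, 95.2, 59.01 and 176 in MYC_Twist1_HCC and differed by -3.38 (SE 0.49, adjusted p = 0.00042). Kif20a, a kinesin of the last step of cell division, stood at 8.35, 8.29 and 10.6 in MYC_Recur and 147, 43.5, 109, 86.7 and 152 in MYC_Twist1_HCC and differed by -3.31 (SE 0.41, adjusted p = 0.00015). Its locus overlaps Brd8 and Cdc23. Whether the authors' counting used strand is not given. These 5 and the falls of Ccs, FBXO18, Pias1 and Fam207a were called with each library left out in turn. Of the 12 largest falls, 2 were not as firm. Prkaa1, the catalytic subunit of the energy sensor AMPK, stood at 0.41, 2.97 and 0.18 in MYC_Recur and 39.7, 42.4, 16.8, 30.5 and 25.3 in MYC_Twist1_HCC and differed by -4.02 (SE 1.03, adjusted p = 0.0229). Cox6b2, the testis form of a cytochrome c oxidase subunit, stood at 3.02, 1.9 and 2.8 in MYC_Recur and 60.1, 4.15, 64.9, 29.04 and 95.1 in MYC_Twist1_HCC and differed by -3.34 (SE 0.78, adjusted p = 0.0135). Prkaa1 lost its call without MYC_Recur 1 or 3 or with a pseudocount of 5 (adjusted p from 0.0636 to 0.115), and Cox6b2 without MYC_Recur 2 or 3 (adjusted p 0.0503 and 0.0514). The smallest p-value of the comparison belonged to Abracl, named outside the rule, at 3.29, 3.17 and 4.07 in MYC_Recur and 43.3, 41.6, 29.9, 29.6 and 45.7 in MYC_Twist1_HCC and a difference of -3.09 (SE 0.24, adjusted p = 2.16e-06).

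**Figure D3:**
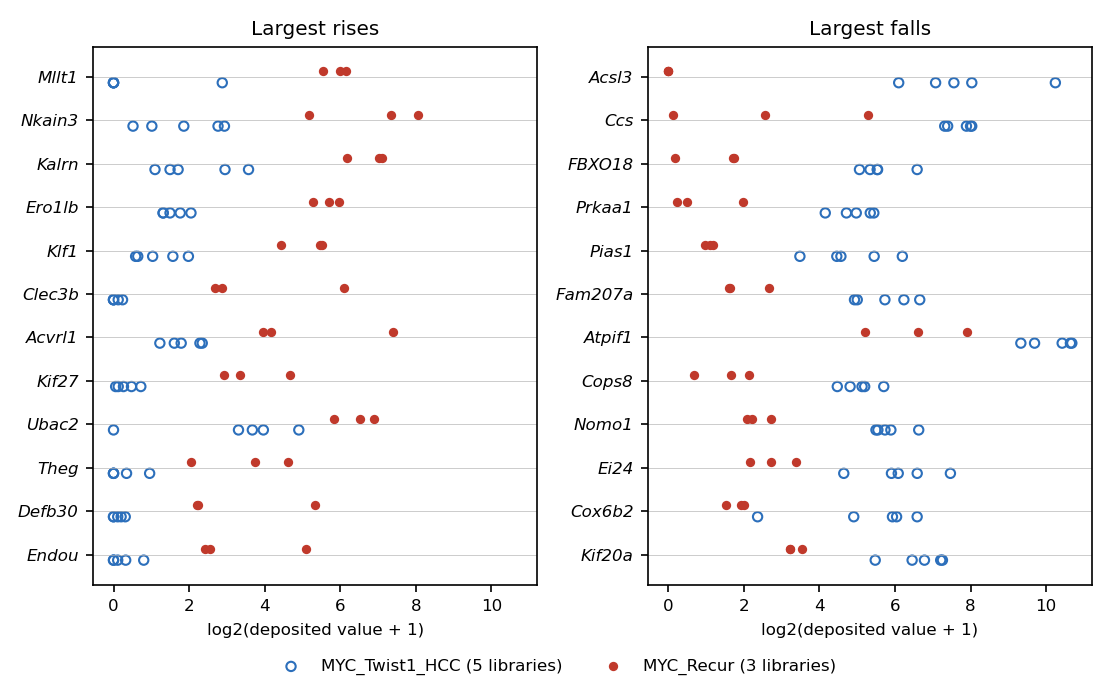
Each dot is 1 library, with log2(deposited value + 1) on the horizontal axis, red filled for the 3 MYC_Recur libraries and blue open for the 5 MYC_Twist1_HCC libraries. The left panel holds the 12 largest rises and the right panel the 12 largest falls, where Acsl3 is listed at 0 in all 3 recurrent libraries.

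For families and pathways, 59 gene lists were described. Across them 1247 genes were tested, of which 34 were called higher and 54 lower. That is 7.06%, beside 7.5% of all genes. The 49 lists with at least 10 tested genes had medians from -0.19 (oncofetal liver tumor genes) to 0.45 (the MYC network). These medians stood beside 0.13 for all genes, and single members lay far from their families. After the 3 other scalings, medians close to 0.1 or below changed sign for some lists, among them those of G1 and S regulators, nuclear pore genes, bile acid metabolism and growth signaling.

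**Figure D4:**
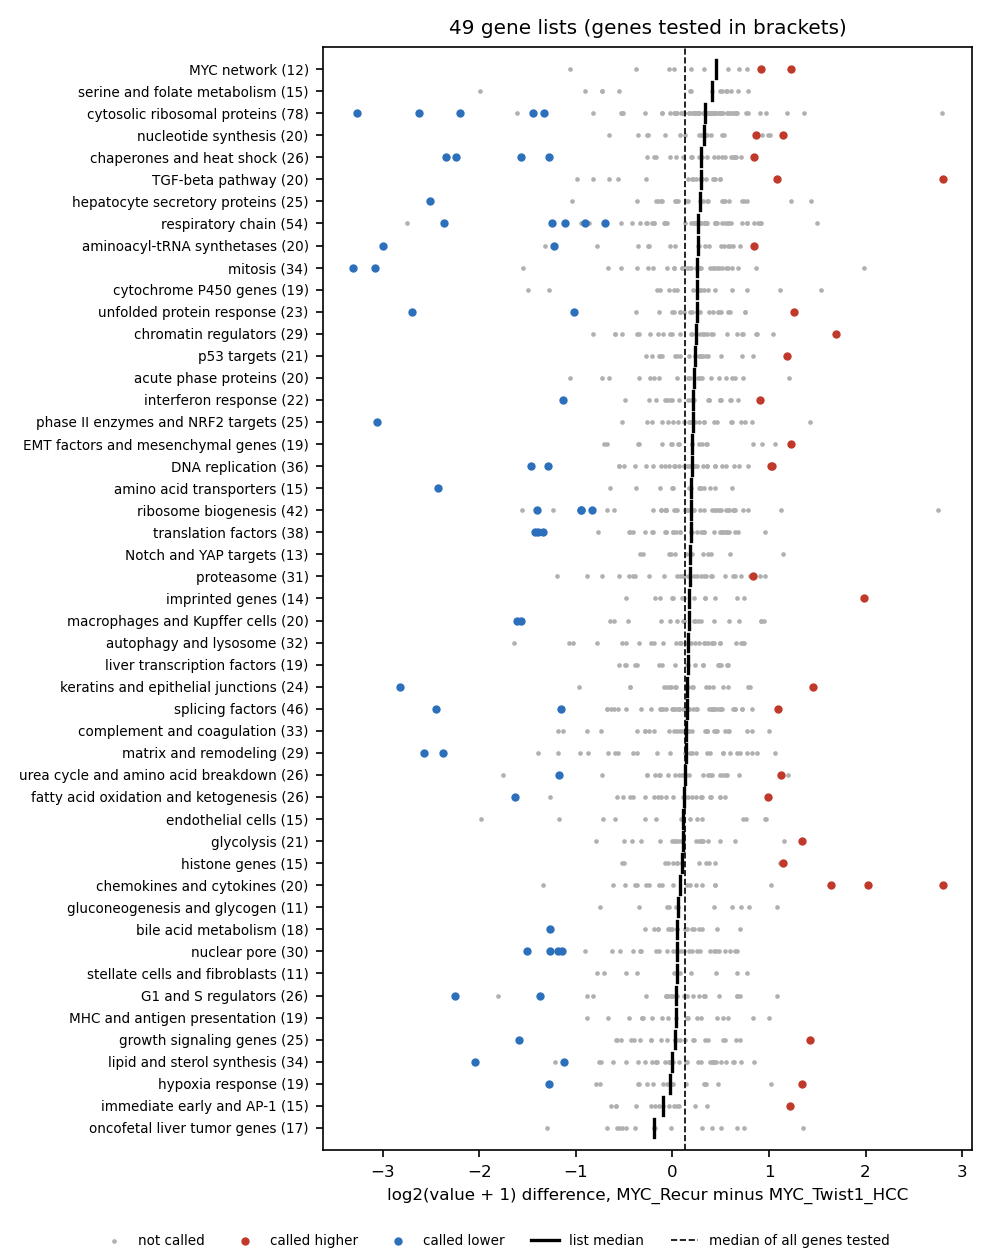
Each row is 1 of the 49 lists with at least 10 tested genes, with the log2(value + 1) difference, MYC_Recur minus MYC_Twist1_HCC, on the horizontal axis. Gray dots are genes not called, red dots genes called higher, blue dots genes called lower, black bars list medians, and the dashed line the median of all genes at 0.13. List medians lie between -0.19 and 0.45, while single members reach -3.31 and 2.80.

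Cytosolic ribosomal proteins are the protein parts of the ribosome and classical targets of MYC. Most of their genes lay above the median of all genes, while single members fell far below it. Of all genes tested, 3.52% were called lower and 3.99% higher. Of the 78 tested genes of this list, 64 lay above 0 and 56 above the median of all genes. The list median was 0.34 beside 0.13 for all genes, yet 5 were called lower and 0 higher. The same counts of called genes held after median-of-ratios and upper-quartile scaling, and quantile normalization gave 6 lower. Without MYC_Recur 3 the list median was 0.18, beside 0.16 for all genes, and 2 were called lower. Rpl28 stood at 689.6, 383 and 169 in MYC_Recur and 3025, 3743, 2686, 2759 and 5687 in MYC_Twist1_HCC, a difference of -3.27 (SE 0.41, adjusted p = 0.000158). Rps9 stood at 1072, 1373 and 1006 in MYC_Recur and 5741, 6054, 4159, 3354 and 8018 in MYC_Twist1_HCC, a difference of -2.20 (SE 0.34, adjusted p = 0.000625). Both were called with each library left out in turn. Rps19 stood at 843, 1911 and 446 in MYC_Recur and 8097, 9142, 5761, 1656 and 7282 in MYC_Twist1_HCC, with the lowest MYC_Twist1_HCC library below the highest recurrent one, and differed by -2.62 (SE 0.56, adjusted p = 0.00798). Rps25 stood at 734, 551 and 398 in MYC_Recur and 1774, 992, 1856, 1373 and 1594 in MYC_Twist1_HCC and differed by -1.44 (SE 0.31, adjusted p = 0.00879). Rpl27a, the other called member, differed by -1.33 (SE 0.31, adjusted p = 0.0126). The calls were lost for Rps19 without MYC_Recur 3 (adjusted p = 0.07), for Rps25 without MYC_Recur 3 (adjusted p = 0.0702) and for Rpl27a without MYC_Recur 3 (adjusted p = 0.0842). Ribosomal protein genes have many near-identical processed copies in the genome. How reads shared between such copies were counted is not given, so these values are uncertain. Rpl28 was at 857 to 2038 in MYC_HCC and at 9864 to 13212 in MYC_OFF, and Rps9 at 740.5 to 1646 and 11646 to 21825. Rpl19 gave the largest positive value, 2.79 (SE 2.08, adjusted p = 0.447), through the 0 listed in MYC_Twist1_HCC 3.

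**Figure D5:**
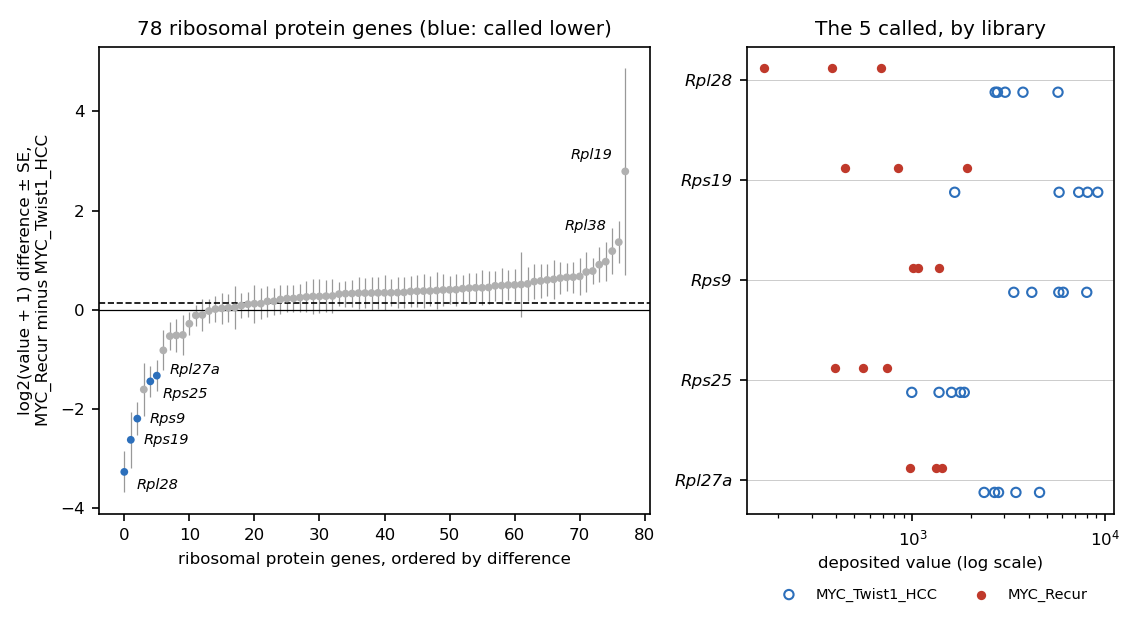
The left panel orders the 78 ribosomal protein genes by log2(value + 1) difference, MYC_Recur minus MYC_Twist1_HCC, with standard errors as bars and the 5 called lower in blue. The right panel gives the deposited values (log scale) of those 5 genes in each library, red filled for MYC_Recur and blue open for MYC_Twist1_HCC.

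Other growth machinery also held members called lower, beside 3.52% of all genes tested called lower and 3.99% called higher. Ribosome biogenesis genes, which build ribosomes in the nucleolus, had 4 of 42 called lower, 0 higher and a median of 0.19. Tcof1, the treacle protein of ribosomal RNA transcription, stood at 56.3, 34.7 and 16.6 in MYC_Recur and 95.3, 112, 74.3, 61.7 and 99.4 in MYC_Twist1_HCC, a difference of -1.41 (SE 0.34, adjusted p = 0.018). Nop16, a nucleolar protein, stood at 73.5, 95.8 and 58.5 in MYC_Recur and 162, 119.8, 112, 134 and 143 in MYC_Twist1_HCC, a difference of -0.83 (SE 0.20, adjusted p = 0.0181). Gnl3, the nucleolar protein nucleostemin, and Wdr12, a ribosome assembly factor, differed by -0.95 (SE 0.28, adjusted p = 0.0466) and -0.95 (SE 0.28, adjusted p = 0.045). Gnl3 lost its call without MYC_Twist1_HCC 1, 2, 3 or 5, without any one MYC_Recur library or without the filter on low values (adjusted p from 0.063 to 0.154), and Wdr12 without MYC_Twist1_HCC 1, 3, 4 or 5, without MYC_Recur 2 or 3, without the filter on low values or in a fit of the 8 libraries alone (adjusted p from 0.0593 to 0.271). Of the 38 translation factors 3 were lower and 0 higher, with a median of 0.19. Eif4g1, the scaffold of the cap-binding complex, stood at 115, 78.6 and 52.9 in MYC_Recur and 273, 148, 229, 196 and 207 in MYC_Twist1_HCC, a difference of -1.39 (SE 0.30, adjusted p = 0.00888), and Eef1b2, an exchange factor of translation elongation, differed by -1.42 (SE 0.32, adjusted p = 0.0107). Eif5b, which joins the ribosomal subunits, differed by -1.34 (SE 0.37, adjusted p = 0.0323) and lost its call without MYC_Twist1_HCC 1 or 5, without MYC_Recur 2 or 3, without the filter on low values or in a fit of the 8 libraries alone (adjusted p from 0.0501 to 0.241). With MYC_Recur 3 left out, none of the ribosome biogenesis genes or translation factors was called lower, and Tcof1, Nop16, Eif4g1 and Eef1b2 were at adjusted p values of 0.15, 0.131, 0.0769 and 0.0714. Of 20 aminoacyl-tRNA synthetases, which load amino acids onto tRNA, 2 were lower and 1 higher. Wars, which loads tryptophan, stood at 1.76, 4.31 and 0.4 in MYC_Recur and 22.2, 14.9, 20.2, 38.98 and 14.8 in MYC_Twist1_HCC and differed by -2.99 (SE 0.41, adjusted p = 0.000273), called with each library left out. Wars was at 22.2 to 45.2 in MYC_HCC and at 0.25 to 2.59 in MYC_OFF. The other called synthetases were Farsb, which differed by -1.23 (SE 0.33, adjusted p = 0.0295) and lost its call without MYC_Twist1_HCC 1 or 2 or without MYC_Recur 2 or 3 (adjusted p from 0.0565 to 0.168), and Tars, which differed by 0.85 (SE 0.25, adjusted p = 0.0415) and lost its call without MYC_Twist1_HCC 1, 2 or 5, without MYC_Recur 1 or 3, after median-of-ratios scaling, after upper-quartile scaling, after quantile normalization, without the filter on low values or in a fit of the 8 libraries alone (adjusted p from 0.0501 to 0.141).

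Cell cycle genes as groups lay near the background, in which 3.52% of all genes tested were called lower and 3.99% higher. Of 36 DNA replication genes 2 were higher and 2 lower (median 0.20), of 34 mitosis genes 0 were higher and 2 lower (0.26), and of 26 regulators of the G1 and S phases 0 were higher and 2 lower (0.04). Mki67, a proliferation marker, stood at 67.2, 40.8 and 44.7 in MYC_Recur and 32.8, 37.2, 38.7, 55.5 and 42.6 in MYC_Twist1_HCC and overlapped. Pcna, the sliding clamp of DNA polymerase, stood at 123, 80.6 and 41.3 in MYC_Recur and 214, 157, 185, 186 and 176 in MYC_Twist1_HCC, a difference of -1.28 (SE 0.28, adjusted p = 0.0085). Rpa1, which coats single-stranded DNA, stood at 42.5, 37.9 and 24.4 in MYC_Recur and 83.1, 76.9, 98.5, 82.9 and 153 in MYC_Twist1_HCC, a difference of -1.46 (SE 0.34, adjusted p = 0.0123). Both lost their calls without MYC_Recur 3 (adjusted p = 0.073 and 0.0905). E2f6, a repressor of the E2F family, stood at 2.85, 1.97 and 5.84 in MYC_Recur and 28.2, 13.7, 22.6, 11.5 and 26.8 in MYC_Twist1_HCC and differed by -2.25 (SE 0.34, adjusted p = 0.00061), called with each library left out. Ccne2, a cyclin of S-phase entry, differed by -1.37 (SE 0.33, adjusted p = 0.0158) and lost its call without MYC_Recur 2 or 3 (adjusted p 0.0743 and 0.103). Racgap1, a partner of the cytokinetic motor, differed by -3.08 (SE 0.89, adjusted p = 0.0412). Its values of 4.44, 10.8 and 0.73 in MYC_Recur and 129, 5.23, 81.4, 15.5 and 98.98 in MYC_Twist1_HCC overlapped, and its call was lost without MYC_Twist1_HCC 1, 3 or 5, without MYC_Recur 1 or 3, with a pseudocount of 5, without the filter on low values or in a fit of the 8 libraries alone (adjusted p from 0.0614 to 0.238). The rises were in Orc1 and Gins4, which act when replication starts, at 1.02 (SE 0.30, adjusted p = 0.046) and 1.04 (SE 0.31, adjusted p = 0.0468). Orc1 lost its call without any one MYC_Twist1_HCC library, without any one MYC_Recur library, with a pseudocount of 0.5, after median-of-ratios scaling, after upper-quartile scaling, after quantile normalization or without the filter on low values (adjusted p from 0.0513 to 0.138). Gins4 lost its call without MYC_Twist1_HCC 1, 3, 4 or 5, without MYC_Recur 1 or 3, after median-of-ratios scaling, after upper-quartile scaling, after quantile normalization, without the filter on low values or in a fit of the 8 libraries alone (adjusted p from 0.0511 to 0.282). Among 21 p53 target genes only Pmaip1, the death inducer NOXA, was called, at 1.18 (SE 0.34, adjusted p = 0.0383), and the call was lost without MYC_Twist1_HCC 3, 4 or 5, without MYC_Recur 2 or 3, after quantile normalization or without the filter on low values (adjusted p from 0.0515 to 0.148).

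In energy metabolism, the respiratory chain had 5 of 54 genes lower and 0 higher, with a median of 0.27, beside 3.52% of all genes tested called lower and 3.99% called higher. Cycs, which encodes cytochrome c, stood at 23.4, 24.4 and 19.9 in MYC_Recur and 104, 83.8, 125, 147 and 156 in MYC_Twist1_HCC, about the same in all 3 recurrent libraries and far below the lowest of the other group, with a difference of -2.37 (SE 0.29, adjusted p = 0.000128). Uqcrq, a subunit of complex III, stood at 293, 424 and 396 in MYC_Recur and 977, 892, 979, 598 and 996 in MYC_Twist1_HCC, a difference of -1.25 (SE 0.29, adjusted p = 0.0123). Cycs was called with each library left out and Uqcrq lost its call without MYC_Recur 1 (adjusted p = 0.0522). Ndufb10 and Ndufb3, subunits of complex I, differed by -1.12 (SE 0.29, adjusted p = 0.0254) and -0.90 (SE 0.26, adjusted p = 0.0384). They lost their calls without MYC_Twist1_HCC 1, 3 or 5 or without MYC_Recur 2 or 3 (adjusted p from 0.0516 to 0.13) and without MYC_Twist1_HCC 1, 2 or 5 or without any one MYC_Recur library (adjusted p from 0.0569 to 0.21), respectively. Atp5d, a subunit of the ATP synthase, differed by -0.70 (SE 0.20, adjusted p = 0.0418) and lost its call without MYC_Twist1_HCC 1, 3, 4 or 5 or without any one MYC_Recur library (adjusted p from 0.0596 to 0.131). Of 21 glycolysis genes 1 was higher, and of 11 genes of gluconeogenesis and glycogen none was called. Slc2a1, the glucose transporter GLUT1, stood at 21.1, 20.9 and 17.6 in MYC_Recur and 5.95, 7.57, 9.5, 10.3 and 4.24 in MYC_Twist1_HCC, with no overlap and a difference of 1.34 (SE 0.31, adjusted p = 0.0119). It was called with each library left out. In the hypoxia list of 19 genes, which also holds Slc2a1, Bnip3 went the other way at 115, 94.1 and 77.5 in MYC_Recur and 236, 295, 229, 192 and 211 in MYC_Twist1_HCC, a difference of -1.28 (SE 0.33, adjusted p = 0.0226), lost without MYC_Recur 2 or 3 (adjusted p 0.0645 and 0.123).

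Single lipid genes were called, beside 7.5% of all genes tested. Acads, an enzyme of short-chain fatty acid oxidation, stood at 22.1, 19.6 and 11.6 in MYC_Recur and 61.9, 40.8, 55.01, 48.2 and 76.2 in MYC_Twist1_HCC, a difference of -1.63 (SE 0.31, adjusted p = 0.00365). Fads2, a desaturase that makes polyunsaturated fatty acids, stood at 39.01, 65.2 and 26.4 in MYC_Recur and 174, 133, 267, 111 and 217 in MYC_Twist1_HCC, a difference of -2.05 (SE 0.37, adjusted p = 0.0024). Both were called with each library left out. Of the 26 genes of fatty acid oxidation and ketogenesis, the other called member, Hadh, rose by 0.99 (SE 0.26, adjusted p = 0.0242) and lost its call without MYC_Twist1_HCC 5, without MYC_Recur 3 or in a fit of the 8 libraries alone (adjusted p from 0.055 to 0.181). Of 34 genes of lipid and sterol synthesis, 2 were lower and 0 higher, with a median of -0.01. The other was Dgat2, which makes triglycerides, at -1.12 (SE 0.30, adjusted p = 0.0313), lost without MYC_Twist1_HCC 1, 4 or 5 or without MYC_Recur 1 or 3 (adjusted p from 0.0573 to 0.181). Of 18 genes of bile acid metabolism 1 was called, the export pump gene Abcc2, at 5.86, 7.01 and 5.25 in MYC_Recur and 16.2, 17.5, 16.4, 10.2 and 20.8 in MYC_Twist1_HCC and a difference of -1.26 (SE 0.32, adjusted p = 0.0215), lost without MYC_Twist1_HCC 5 or without MYC_Recur 1 or 3 (adjusted p from 0.0522 to 0.103).

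Single genes of amino acid, redox and nucleotide metabolism differed as well, beside 7.5% of all genes tested that were called. Slc36a1, a lysosomal amino acid transporter, was near 0 in recurrent tumors, at 0.02, 0 and 0.08 in MYC_Recur and 4.06, 9.3, 2.4, 4.07 and 4.97 in MYC_Twist1_HCC, a difference of -2.43 (SE 0.34, adjusted p = 0.000369). It passed the filter through MYC_Twist1_HCC alone, so the filter itself favored a fall. Gclc, the catalytic subunit of the first enzyme of glutathione synthesis, stood at 1.9, 1.46 and 0.54 in MYC_Recur and 27.2, 33.95, 11.3, 12.6 and 12.2 in MYC_Twist1_HCC, a difference of -3.06 (SE 0.46, adjusted p = 0.000496). Gclc was called with each library left out and was the 1 called gene of 25 phase II enzymes and NRF2 targets, whose median was 0.21. Among 20 nucleotide synthesis genes 2 were higher and 0 lower, with a median of 0.33. Adss, an enzyme of adenine nucleotide synthesis, stood at 98.04, 90.3 and 128 in MYC_Recur and 50.1, 39.9, 65.8, 56.1 and 30.4 in MYC_Twist1_HCC and differed by 1.14 (SE 0.29, adjusted p = 0.021), and Impdh1, of guanine nucleotide synthesis, differed by 0.86 (SE 0.25, adjusted p = 0.0415). Adss lost its call without MYC_Twist1_HCC 5 or without MYC_Recur 3 (adjusted p 0.0518 and 0.121) and Impdh1 without MYC_Twist1_HCC 1, 2, 4 or 5, without any one MYC_Recur library, after median-of-ratios scaling, after upper-quartile scaling, after quantile normalization or without the filter on low values (adjusted p from 0.0502 to 0.2). In the urea cycle and amino acid list of 26 genes, Slc25a15 was higher at 1.12 (SE 0.33, adjusted p = 0.045) and Glul lower at -1.18 (SE 0.35, adjusted p = 0.0486). Slc25a15 lost its call without MYC_Twist1_HCC 1, 2, 4 or 5, without any one MYC_Recur library, with a pseudocount of 0.5, after median-of-ratios scaling, after upper-quartile scaling, without the filter on low values or in a fit of the 8 libraries alone (adjusted p from 0.0519 to 0.223) and Glul without any one MYC_Twist1_HCC library, without MYC_Recur 2 or 3, without the filter on low values, in a fit of the 8 libraries alone or without the intensity trend (adjusted p from 0.0506 to 0.281).

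Protein folding genes moved in both directions. Of 26 chaperones 4 were lower and 1 higher, with a median of 0.29. Of all genes tested, 3.52% were called lower and 3.99% higher. Hspd1, the mitochondrial chaperonin HSP60, stood at 678, 599 and 73.6 in MYC_Recur and 1436, 1123, 1399.8, 1403 and 2209 in MYC_Twist1_HCC, a difference of -2.24 (SE 0.50, adjusted p = 0.0113), with MYC_Recur 3 lowest. Its gene overlaps Hspe1, and its call was lost in a fit of the 8 libraries alone (adjusted p = 0.0619). Hsp90aa1, the inducible cytosolic HSP90, stood at 658, 947 and 717 in MYC_Recur and 1796, 2399, 1573, 1680.3 and 5250.0 in MYC_Twist1_HCC, a difference of -1.57 (SE 0.37, adjusted p = 0.0156). Dnaja1, a partner of HSP70, stood at 65.5, 61.5 and 34.02 in MYC_Recur and 151, 142, 98.4, 94.7 and 164 in MYC_Twist1_HCC, a difference of -1.28 (SE 0.29, adjusted p = 0.0123). Hspa1b, an inducible HSP70 with a near-identical neighbor gene, was low throughout at 0.83, 0.72 and 0.38 in MYC_Recur and 8.41, 3.64, 17.7, 3.54 and 9.64 in MYC_Twist1_HCC, passed the filter through MYC_Twist1_HCC alone and differed by -2.35 (SE 0.61, adjusted p = 0.0246). Hspa14, a chaperone at the ribosome, was the 1 higher member at 0.84 (SE 0.24, adjusted p = 0.0352). Calls were lost for Hsp90aa1 without MYC_Recur 1 or 3 (adjusted p 0.0515 and 0.0709), for Dnaja1 without MYC_Recur 3 (adjusted p = 0.104), for Hspa1b without MYC_Twist1_HCC 3 or 5, without MYC_Recur 2 or 3 or with a pseudocount of 5 (adjusted p from 0.0531 to 0.107) and for Hspa14 without MYC_Twist1_HCC 1, 2 or 5, without MYC_Recur 1 or 3, after median-of-ratios scaling or after upper-quartile scaling (adjusted p from 0.0566 to 0.222). In the unfolded protein response list of 23 genes, Xbp1, its transcription factor, stood at 37.5, 58.99 and 121 in MYC_Recur and 23.8, 31.5, 34.2, 32.7 and 15.2 in MYC_Twist1_HCC, a difference of 1.26 (SE 0.32, adjusted p = 0.0211). Dnajb9, a chaperone it induces, stood at 5.12, 7.75 and 4.66 in MYC_Recur and 11.6, 17.99, 10.8, 12.7 and 10.9 in MYC_Twist1_HCC, a difference of -1.02 (SE 0.26, adjusted p = 0.0211), and Manf, a secreted stress protein, differed by -2.70 (SE 0.77, adjusted p = 0.0389). Calls were lost for Xbp1 without MYC_Twist1_HCC 5, without MYC_Recur 3 or in a fit of the 8 libraries alone (adjusted p from 0.0513 to 0.177), for Dnajb9 without MYC_Recur 1 or 3 (adjusted p 0.0623 and 0.119) and for Manf without MYC_Twist1_HCC 1, 2, 3 or 5, without any one MYC_Recur library or without the filter on low values (adjusted p from 0.0521 to 0.174). Of 31 proteasome genes 1, Psmd3, was called, at 0.84 (SE 0.25, adjusted p = 0.0472), lost without MYC_Twist1_HCC 1, 2 or 5, without any one MYC_Recur library, after median-of-ratios scaling, after upper-quartile scaling, after quantile normalization, without the filter on low values, in a fit of the 8 libraries alone or without the intensity trend (adjusted p from 0.0503 to 0.171).

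Genes of hepatocyte identity showed few calls, beside 7.5% of all genes tested. None of 19 liver transcription factors, 19 cytochrome P450 genes, 33 complement and coagulation genes or 20 acute phase genes was called. Their medians were 0.16, 0.26, 0.14 and 0.23. The smallest p-values among them were those of Hhex, a transcription factor of liver development, at 63.4, 51.7 and 47.4 in MYC_Recur and 37.1, 41.3, 34.1, 39.5 and 29.5 in MYC_Twist1_HCC and a difference of 0.56 (SE 0.21, adjusted p = 0.115), and of Cyp2e1, an enzyme of pericentral hepatocytes, at 89, 115 and 108 in MYC_Recur and 55.2, 63.1, 70.4, 50.8 and 62.2 in MYC_Twist1_HCC and a difference of 0.78 (SE 0.25, adjusted p = 0.0616). In both genes the groups did not overlap although the test was not passed. Among 25 secretory genes Apoh, a plasma glycoprotein, was called, at 279.6, 75.6 and 33.3 in MYC_Recur and 615, 531, 591, 247 and 758 in MYC_Twist1_HCC and a difference of -2.51 (SE 0.53, adjusted p = 0.00727). It lost its call without MYC_Recur 3 (adjusted p = 0.0678). None of 17 oncofetal genes, which liver tumors re-express from fetal liver, was called. Afp, the classical one, stood at 1554, 1896 and 2969 in MYC_Recur and 1404, 1364, 1785, 2155 and 1719.6 in MYC_Twist1_HCC and Igf2 at 1355, 1882 and 3559.6 in MYC_Recur and 1098, 1052, 1419, 1477 and 1256 in MYC_Twist1_HCC, both highest in MYC_Recur 3. Of 9 genes of the Wnt pathway and its pericentral targets, Znrf3 and Zfp703 were higher, at 1.66 (SE 0.44, adjusted p = 0.0286) and 0.97 (SE 0.25, adjusted p = 0.0261), and Glul was lower. Znrf3 lost its call without MYC_Twist1_HCC 1 or 2, without any one MYC_Recur library, after quantile normalization or without the filter on low values (adjusted p from 0.0501 to 0.119) and Zfp703 without MYC_Twist1_HCC 3 or 5, without MYC_Recur 3, after median-of-ratios scaling, after upper-quartile scaling or after quantile normalization (adjusted p from 0.051 to 0.185).

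The label TWIST1 makes genes of epithelial and mesenchymal state of interest. Their calls stand beside 3.99% of all genes tested called higher and 3.52% called lower. Of 19 EMT factors and mesenchymal genes 1 was called, Cd44, an adhesion receptor for hyaluronan, which was higher, at 5.24, 8.48 and 6.32 in MYC_Recur and 2.11, 2.34, 1.78, 3 and 2.01 in MYC_Twist1_HCC, a difference of 1.23 (SE 0.23, adjusted p = 0.00281). Vim, the mesenchymal filament vimentin, overlapped at 15.4, 11.99 and 6.88 in MYC_Recur and 17.02, 26.9, 17.3, 13.5 and 19.6 in MYC_Twist1_HCC, a difference of -0.71 (SE 0.44, adjusted p = 0.353). Of 24 keratins and epithelial junction genes 1 was higher and 1 lower. Krt18, the keratin of simple epithelia such as hepatocytes, stood at 101, 26.98 and 15.4 in MYC_Recur and 274, 255, 268, 116 and 489 in MYC_Twist1_HCC, a difference of -2.83 (SE 0.53, adjusted p = 0.0034). Its partner keratin Krt8 overlapped at 70.5, 88.4 and 110.3 in MYC_Recur and 83.2, 71.1, 86.4, 119 and 53.4 in MYC_Twist1_HCC, a difference of 0.14 (SE 0.37, adjusted p = 0.86). Ctnnd1, the p120 catenin of adherens junctions, stood at 85.8, 82.8 and 322 in MYC_Recur and 42.2, 31.8, 74.2, 61.97 and 39.1 in MYC_Twist1_HCC, a difference of 1.45 (SE 0.36, adjusted p = 0.0206), lost without MYC_Recur 3, after median-of-ratios scaling or in a fit of the 8 libraries alone (adjusted p from 0.0518 to 0.152). Of 29 matrix genes 2 were lower and 0 higher. Col6a2, a chain of collagen VI, stood at 0.22, 1.06 and 0.07 in MYC_Recur and 9.57, 9.36, 7.82, 3.13 and 8.55 in MYC_Twist1_HCC, a difference of -2.57 (SE 0.43, adjusted p = 0.00126). Nid2, a basement membrane protein, stood at 0.44, 2.75 and 0.21 in MYC_Recur and 5.01, 48.9, 4.55, 4.76 and 7.84 in MYC_Twist1_HCC, a difference of -2.37 (SE 0.63, adjusted p = 0.0272), lost without MYC_Recur 1 or 3, with a pseudocount of 5 or in a fit of the 8 libraries alone (adjusted p from 0.0738 to 0.149). Cd44, Krt18 and Col6a2 were called with each library left out.

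Signaling genes that rose included a ligand and a receptor of the TGF-beta family. Of 20 genes of that pathway 2 were higher and 0 lower, with a median of 0.29, beside 3.99% of all genes tested called higher and 3.52% called lower. Tgfb2, a ligand, stood at 24.3, 4.18 and 7.47 in MYC_Recur and 0.54, 0.39, 0.16, 0.52 and 0.94 in MYC_Twist1_HCC, a difference of 2.80 (SE 0.58, adjusted p = 0.00635), with MYC_Recur 1 highest. It passed the filter through MYC_Recur alone and so had to differ. Bmpr2, a receptor for bone morphogenetic proteins, stood at 8.03, 7.71 and 10.7 in MYC_Recur and 4.23, 3.47, 2.69, 3.89 and 3.86 in MYC_Twist1_HCC, a difference of 1.08 (SE 0.22, adjusted p = 0.00539). Among 25 growth signaling genes Fgfr1, a receptor for fibroblast growth factors, was lower at 1.6, 3.4 and 1.36 in MYC_Recur and 6, 8.15, 9.65, 5.53 and 12.6 in MYC_Twist1_HCC, a difference of -1.59 (SE 0.33, adjusted p = 0.00662). Bmpr2 and Fgfr1 were called with each library left out. Pik3ca, a catalytic subunit of phosphoinositide 3-kinase, was higher at 1.42 (SE 0.42, adjusted p = 0.0479) and lost its call without MYC_Twist1_HCC 1, 4 or 5, without any one MYC_Recur library, with a pseudocount of 0.5, after median-of-ratios scaling, after upper-quartile scaling, after quantile normalization, without the filter on low values or in a fit of the 8 libraries alone (adjusted p from 0.0529 to 0.237). Of 15 immediate early genes Jun, a subunit of AP-1, was the called one, at 10.7, 14.3 and 16.5 in MYC_Recur and 2.79, 6.14, 7.91, 6.23 and 4.57 in MYC_Twist1_HCC and a difference of 1.22 (SE 0.31, adjusted p = 0.0221), lost without MYC_Twist1_HCC 1 or 5, without MYC_Recur 2 or 3, after median-of-ratios scaling, after upper-quartile scaling or after quantile normalization (adjusted p from 0.0506 to 0.119). Under each of the 3 other scalings the calls of this list were instead 0 higher and 2 lower, Jund and Ier2, which as reported differed by -0.58 (SE 0.21, adjusted p = 0.0972) and -0.59 (SE 0.19, adjusted p = 0.0638) and were not called. None of 13 Notch and YAP target genes was called.

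Inflammatory signals differed in single genes, beside 3.99% of all genes tested called higher and 3.52% called lower. Ccl20, a chemokine for lymphocytes and dendritic cells, was low throughout but higher in recurrent tumors, at 3.05, 4.26 and 13.3 in MYC_Recur and 0.49, 0.47, 0.56, 1.52 and 0.44 in MYC_Twist1_HCC, a difference of 2.02 (SE 0.36, adjusted p = 0.00196). S100a9, a subunit of the neutrophil protein calprotectin, stood at 11.1, 18.3 and 12.6 in MYC_Recur and 3.04, 4.25, 3.3, 7.16 and 1.12 in MYC_Twist1_HCC, a difference of 1.75 (SE 0.35, adjusted p = 0.00516). It was the 1 called of 7 tested neutrophil and monocyte markers, whose median was -0.03. Irf1, a transcription factor of the interferon response, stood at 5.44, 5.6 and 3.49 in MYC_Recur and 11.6, 12.8, 9.09, 11.2 and 13.97 in MYC_Twist1_HCC, a difference of -1.13 (SE 0.22, adjusted p = 0.00449). Itgam, the integrin CD11b of myeloid cells, stood at 0.09, 0.14 and 0.19 in MYC_Recur and 2.99, 3.77, 1.89, 0.98 and 3.6 in MYC_Twist1_HCC, a difference of -1.61 (SE 0.35, adjusted p = 0.00879), and passed the filter through MYC_Twist1_HCC alone. Ccl20, S100a9 and Irf1 were called with each library left out. Of 20 chemokines and cytokines 3 were higher and 0 lower, the others being Tgfb2 and Cx3cl1, the latter at 1.65 (SE 0.45, adjusted p = 0.0317) and lost without MYC_Twist1_HCC 3, 4 or 5 or without MYC_Recur 2 or 3 (adjusted p from 0.0603 to 0.165), and both passed the filter through MYC_Recur alone. Of 22 interferon response genes the other called one, Isg15, was higher at 0.91 (SE 0.24, adjusted p = 0.0249), lost without MYC_Twist1_HCC 1, 3 or 5, without MYC_Recur 3, after median-of-ratios scaling or in a fit of the 8 libraries alone (adjusted p from 0.0504 to 0.16). Lgals9, a ligand of the checkpoint receptor TIM-3, was higher at 1.64 (SE 0.46, adjusted p = 0.0351), the 1 called of 9 checkpoint ligands, lost without MYC_Twist1_HCC 2, 4 or 5, without MYC_Recur 2 or 3, after median-of-ratios scaling, after upper-quartile scaling or without the filter on low values (adjusted p from 0.0547 to 0.181). None of 19 genes of MHC and antigen presentation was called.

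Markers of other cell types were read beside these values. In bulk tissue, fewer cells of a type and less RNA per cell cannot be told apart. Macrophage and Kupffer cell markers, 20 of 22 tested, summed to 753 to 1029 in MYC_Recur and 574 to 812 in MYC_Twist1_HCC, with Itgam and Spic lower and 0 higher. Most of the list went the other way: 13 of the 20 lay above 0, and the median was 0.17 beside 0.13 for all genes. Among all genes tested, 3.52% were called lower. Spic differed by -1.57 (SE 0.44, adjusted p = 0.038) and lost its call without MYC_Twist1_HCC 1, 3 or 4, without MYC_Recur 1 or 2, after quantile normalization, without the filter on low values or in a fit of the 8 libraries alone (adjusted p from 0.0601 to 0.169). Neutrophil and monocyte markers summed to 101 to 113 in MYC_Recur and 80.97 to 109 in MYC_Twist1_HCC, and 9 of 19 markers were below 1 in all 8 libraries, the granule genes Mpo and Elane among them. Of the 7 tested, S100a9 was the called one, 3 lay above 0 and the median was -0.03. T and NK cell markers summed to 22.8 to 124 in MYC_Recur and 14.8 to 25.7 in MYC_Twist1_HCC, and 4 of the 7 tested lay above 0. Of 24 markers 13 were below 1 in all 8 libraries, among them Cd3e, Cd4 and Cd8a, and the highest sum came from Foxp3, at 12.04, 92.7 and 4.74 in MYC_Recur. Cd247 was the called one, at 0.80 (SE 0.20, adjusted p = 0.02), lost without MYC_Twist1_HCC 5 or without MYC_Recur 2 (adjusted p 0.0504 and 0.0743). B and plasma cell markers summed to 7.45 to 33.9 in MYC_Recur and 6.45 to 10 in MYC_Twist1_HCC. Only 3 were tested, of which 1 lay above 0, and their median was -0.55. The uncalled members lay at -0.74 to -0.55. Cd79b was called, at 9.75, 1.15 and 29.1 in MYC_Recur and 0.24, 1.33, 1.1, 0.93 and 0.14 in MYC_Twist1_HCC and a difference of 2.40 (SE 0.51, adjusted p = 0.0082), while its partner Cd79a and Ms4a1 were below 1 in all 8 libraries. Cd79b overlapped and lost its call without MYC_Recur 3 or in a fit of the 8 libraries alone (adjusted p 0.0561 and 0.0662). Erythroid markers summed to 859 to 1054 in MYC_Recur and 526 to 884 in MYC_Twist1_HCC, and all 7 tested lay above 0. Klf1 alone was called, while Alas2, of heme synthesis in red cells, stood at 8.29, 7.3 and 10.3 in MYC_Recur and 6.45, 5.24, 5.14, 3.93 and 4.42 in MYC_Twist1_HCC, a difference of 0.68 (SE 0.23, adjusted p = 0.0755), and Slc4a1 and Ahsp were below 1 in all 8 libraries. Their part in the rise of Klf1 was not tested.

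Supporting cells gave no called marker. The tested genes of endothelium (15), of stellate cells and fibroblasts (11), of bile ducts and progenitors (8), of dendritic cells (4) and of pancreas and gut (3) had 0 calls. Endothelial markers summed to 35.5 to 70.2 in MYC_Recur and 50.8 to 83.1 in MYC_Twist1_HCC, and the endothelial genes Tek, Vwf and Lyve1 were below 1 in all 8 libraries. Stellate cell and fibroblast markers summed to 70.2 to 132 in MYC_Recur and 56.9 to 78.2 in MYC_Twist1_HCC, biliary markers to 120.1 to 174 in MYC_Recur and 132 to 182 in MYC_Twist1_HCC and dendritic cell markers to 77.05 to 109 in MYC_Recur and 70.8 to 143 in MYC_Twist1_HCC. Pancreas and gut markers summed to 11.4 to 65.05 in MYC_Recur and 5.85 to 10.1 in MYC_Twist1_HCC, where the highest sum rested on Cdx2, the transcription factor of intestine, at 0.47, 54.1 and 1.27 in MYC_Recur and 0.3, 0.14, 0.5, 0.36 and 0.67 in MYC_Twist1_HCC. Cdx2 did not pass the filter and was not tested.

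In the nucleus, nuclear pore and transport genes had 4 of 30 lower and 0 higher, with a median of 0.05, beside 3.52% of all genes tested called lower and 3.99% called higher. Rangap1, which activates the Ran GTPase outside the nucleus, stood at 63.5, 51.9 and 43.4 in MYC_Recur and 136, 171, 158, 137 and 152 in MYC_Twist1_HCC, a difference of -1.50 (SE 0.22, adjusted p = 0.000496). Nup54, Ipo5 and Nup153 differed by -1.18 (SE 0.31, adjusted p = 0.0252), -1.15 (SE 0.34, adjusted p = 0.0437) and -1.27 (SE 0.37, adjusted p = 0.0455). They lost their calls without MYC_Twist1_HCC 3 or without MYC_Recur 2 or 3 (adjusted p from 0.052 to 0.168), without MYC_Twist1_HCC 1, 2, 4 or 5, without MYC_Recur 3 or without the filter on low values (adjusted p from 0.0508 to 0.29) and without MYC_Twist1_HCC 1, 2, 3 or 5, without MYC_Recur 2 or 3 or without the filter on low values (adjusted p from 0.0588 to 0.231), in that order. Eed, a core subunit of the Polycomb complex PRC2, stood at 63.6, 42.9 and 99.7 in MYC_Recur and 20.2, 14.8, 28.6, 26.3 and 11.9 in MYC_Twist1_HCC, a difference of 1.69 (SE 0.33, adjusted p = 0.00432), and was the 1 called of 29 chromatin regulators. Rangap1 and Eed were called with each library left out. Of 46 splicing factors 2 were lower and 1 higher. Snrpf, a core protein of splicing particles, stood at 266, 196 and 204 in MYC_Recur and 5886, 1389, 752, 1023 and 408 in MYC_Twist1_HCC, a difference of -2.45 (SE 0.67, adjusted p = 0.0312), lost without MYC_Twist1_HCC 1 or 2, without any one MYC_Recur library, without the filter on low values or in a fit of the 8 libraries alone (adjusted p from 0.0522 to 0.116). Sf3a3 differed by -1.16 (SE 0.34, adjusted p = 0.0452) and Snrpd3 by 1.09 (SE 0.32, adjusted p = 0.0426). They lost their calls without any one MYC_Twist1_HCC library, without MYC_Recur 2 or 3 or without the filter on low values (adjusted p from 0.0545 to 0.152) and without MYC_Twist1_HCC 1, 2, 4 or 5, without MYC_Recur 2 or 3, after median-of-ratios scaling, after upper-quartile scaling or without the filter on low values (adjusted p from 0.059 to 0.272). Impact, a regulator of translation and an imprinted gene, stood at 47.6, 26.4 and 30.3 in MYC_Recur and 6.27, 15.4, 4.21, 6.5 and 10.2 in MYC_Twist1_HCC, a difference of 1.98 (SE 0.48, adjusted p = 0.0171), lost without MYC_Recur 1 or 3 (adjusted p 0.0638 and 0.0546). H3f3a, a variant histone, differed by 1.14 (SE 0.34, adjusted p = 0.0479) and lost its call without MYC_Twist1_HCC 1, 2 or 5, without any one MYC_Recur library, after median-of-ratios scaling, after upper-quartile scaling, without the filter on low values, in a fit of the 8 libraries alone or without the intensity trend (adjusted p from 0.0502 to 0.224).

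By chromosome, the median difference was 0.06 to 0.18 on the autosomes and 0.09 on X, and 5.82% to 8.92% of the tested genes of an autosome were called, beside 7.5% of all. Called genes overlapped another gene about as often as tested genes did, 48.5% of those higher and 48.0% of those lower beside 46.7% of all. Of 5 Y-linked genes tested 1 was higher and 1 lower, with a median of -0.49. Uty, a histone demethylase relative, was called lower at 1.11, 1.46 and 1.17 in MYC_Recur and 7.39, 3.19, 8, 5.88 and 8.27 in MYC_Twist1_HCC, a difference of -1.70 (SE 0.24, adjusted p = 0.000369), with each library left out. Uba1y, a relative of the ubiquitin-activating enzyme, was called higher at 1.32, 2.56 and 1.39 in MYC_Recur and 0.63, 0.56, 0.42, 1.1 and 0.84 in MYC_Twist1_HCC, a difference of 0.67 (SE 0.20, adjusted p = 0.0484). Its call was lost without MYC_Twist1_HCC 1, 2, 3 or 5, without MYC_Recur 2 or 3, with a pseudocount of 0.5, after median-of-ratios scaling, after upper-quartile scaling, after quantile normalization, with a filter on the mean or in a fit of the 8 libraries alone (adjusted p from 0.053 to 0.215). Eif2s3y overlapped at 32.3, 38.2 and 28.2 in MYC_Recur and 38.1, 35.8, 49.6, 33.9 and 30.6 in MYC_Twist1_HCC. Ddx3y stood at 9.12, 9.38 and 5.13 in MYC_Recur and 15.5, 9.98, 11.5, 16.8 and 15.6 in MYC_Twist1_HCC, without overlap and not called, a difference of -0.76 (SE 0.28, adjusted p = 0.104).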

How the data were processed

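RNA sequencing of 19 mouse liver tumor libraries gave 1 table that the authors deposited, with 1 normalized signal value per gene symbol and library. The submitters' processing notes name the mm10 build and, in no stated order, DESeq2, featureCounts, Picard, STAR and Trimmomatic. No version, strand setting, annotation or formula for the values is given in the sources used here, and depth is unknown.

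Of 19511 rows, 25 were bare numbers and were left out. Genes with a value of at least 1 in at least 3 of the 8 libraries compared were tested on log2(value + 1) with limma 3.58.1 (R 4.3.3, limma-trend). The fit held the 5 group means of all 19 libraries (14 residual degrees of freedom), so standard errors pool the spread of all groups. Two-sided p-values were adjusted by Benjamini-Hochberg over all 11941 genes. On this scale changes of low genes are understated. The design foresaw such normalized values, and a count test was not used. Symbols are printed in mouse style where they matched mouse gene names (11294 genes, and 599 through a RefSeq synonym). Coordinates, gene overlaps and start regions are from RefSeq on GRCm38, the assembly mm10 names.

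Named genes are Myc and Twist1, then the 12 largest rises and 12 largest falls among called genes with no overlap and a mean of at least 5 in a group, without predicted symbols. Then follow up to 4 called members per list with the smallest p and 1 of the other direction, or up to 2 uncalled members where none was called. Picked with their values in view, outside the rule, were Abracl, Afp, Alas2, Alb, Atp5d, Cacna1c, Cdx2, Ddx3y, Eif2s3y, Foxp3, Ier2, Igf2, Jund, Krt8, Mki67, Npm1, Rpl19, Rpl27a, Sfxn5, Uba1y and Vim, the genes beside the filter line, markers named as below 1 and genes of the closing section that it marks so. A few genes are not reported here: they stay in the fit and were left out of the lists, the named genes and the figures by gene. The members and lists were chosen with earlier results of these data known.

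On simulated data with 200 of 11941 genes shifted, the test recovered 85% of 4-fold and 27% of 2-fold shifts, with 4 unshifted genes called. Only genes with a mean log2 value of at least 3 were shifted. The simulated noise was normal with 1 spread per gene shared by all groups. In the data the standard deviation was over 1 in 6.08% of genes in MYC_Recur and 3.21% in MYC_Twist1_HCC. The simulated shares of recovered and false calls therefore hold for equal spread only. Alternatives were other pseudocounts, scalings, filters and models, a replicate block, and each library left out.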

Additional observations from a re-analysis of the deposited data

Results flagged for a closer look

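In 11 of 139 named genes a single MYC_Twist1_HCC library lay far from the other 4, by a test that chance alone passes in about 1 of 20 genes. MYC_Twist1_HCC 4 was low in Rps19 at 1656 (others 5761 to 9142), Uqcrq at 598 (892 to 996), Ndufb10 at 281 (440.1 to 512) and Col6a2 at 3.13 (7.82 to 9.57), and high in Ccl20 at 1.52 (0.44 to 0.56). MYC_Twist1_HCC 5 was low in Mlxipl at 10.2 (16.6 to 18.8), Gins4 at 14.4 (31.3 to 37.3) and Slc37a4 at 22.4 (33.6 to 36.5). MYC_Twist1_HCC 2 was low in Orc1 at 5.32 (8.62 to 9.98) and high in Nid2 at 48.9 (4.55 to 7.84). MYC_Twist1_HCC 1 was high in Mllt1 at 6.35, where the other 4 are listed at 0. The MYC_Recur group has 3 libraries and was not tested in this way.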

How the results depend on the processing

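The count of 896 called genes stayed within 1.5 times under the other pseudocounts (873 and 992), scalings (770 to 794), filters (855 and 867) and models (943 and 898). Fewer of the 896 genes were themselves kept: 850 and 827 under those pseudocounts and 694 to 718 under the scalings. Without the filter 710 were kept, and with a filter on the mean 858. A fit of the 8 libraries alone kept 675, and a fit without the intensity trend kept 882. With 1 library left out the count of called genes ranged from 410 to 907, for genes higher from 218 to 482 (main value 476) and for genes lower from 192 to 425 (main value 420). The lowest values came without MYC_Recur 3, a setting with fewer recurrent libraries, and the next lowest for all calls without MYC_Twist1_HCC 5 at 590. The number of genes higher fell to 288 after median-of-ratios scaling, 307 after upper-quartile scaling and 302 after quantile normalization. The cause was not tested. No called gene changed sign. Of the 108 named genes that were called, 42 kept the call with each of the 8 libraries left out and 88 under the 3 other scalings. Same-numbered libraries were not the most alike: their deviations from the group means correlated at 0.04, -0.10 and 0.12, and each MYC_Recur library correlated best with another number. These correlations across genes cannot show whether any samples shared an animal. A fit with the replicate number as a block called 273 genes higher and 336 lower. Of the 108 named called genes, 38 lost the call in that fit. Losses in that fit are not included in the lost calls given gene by gene above. Depth is unknown, so it cannot be said which low genes it limits. The simulated recovery of 27% for 2-fold shifts means that many genes not called may still differ.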

Other observations

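Several of the smallest p-values of the comparison belonged to genes of lipid handling, transcription and splicing outside the lists and the naming rule, chosen here after their values were seen. Mogat1, an enzyme of triglyceride synthesis, was at 0.697 ± 0.348 (SD, n = 3) in MYC_Recur and 9.63 ± 3.21 (SD, n = 5) in MYC_Twist1_HCC, a difference of -2.61 (SE 0.31, limma adjusted p = 0.00011). Acat3, a cytosolic acetyl-CoA acetyltransferase with close relatives in the genome, was at 54.1 ± 19.4 against 423 ± 189, a difference of -2.88 (SE 0.37, limma adjusted p = 0.000172). Bud31, a splicing protein, was at 25.7 ± 3.42 against 104 ± 22.1, a difference of -1.96 (SE 0.23, limma adjusted p = 9.1e-05). Tbl1xr1, a subunit of nuclear receptor corepressor complexes, was at 0.293 ± 0.0929 against 4.02 ± 1.11, a difference of -1.93 (SE 0.23, limma adjusted p = 0.00011). Tbl1xr1 passed the filter through MYC_Twist1_HCC alone, so the filter itself favored a fall. Lpar2, a receptor for lysophosphatidic acid, was at 1.18 ± 0.928 against 15.4 ± 6.73, a difference of -2.87 (SE 0.36, limma adjusted p = 0.00015). Among rises, Rps6ka4, a kinase downstream of MAP kinases, was at 9.97 ± 2.88 against 1.58 ± 1.03, a difference of 2.13 (SE 0.27, limma adjusted p = 0.000172). Zbtb33, the transcription factor Kaiso, was at 56.3 ± 50.5 against 4.84 ± 1.41, a difference of 2.97 (SE 0.36, limma adjusted p = 0.000128), with wide spread among the recurrent libraries.

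Of 32 autophagy and lysosome genes none was called, and their median was 0.16. The smallest p-values there were those of Mcoln1, a lysosomal calcium channel, at 8.55, 8.46 and 20.8 in MYC_Recur and 7.64, 6.43, 5.97, 6.5 and 6.37 in MYC_Twist1_HCC (adjusted p = 0.0651), and Atg3, a conjugating enzyme of autophagosome growth, at 31.7, 41.8 and 56.6 in MYC_Recur and 23.2, 20.2, 35.4, 28.8 and 19.97 in MYC_Twist1_HCC (adjusted p = 0.071). The libraries of MYC_Recur varied more than those of MYC_Twist1_HCC, with a standard deviation of log2(value + 1) over 1 in 6.08% of the genes tested in MYC_Recur and in 3.21% in MYC_Twist1_HCC. Among genes called higher these shares were 11.3% and 2.73%, and among genes called lower 9.52% and 6.90%.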
